A study of Rattus norvegicus with 11 samples.

Results

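The genes described here are 53 genes of the cell division cycle, from the cyclins that open it through the enzymes that copy DNA to the motors and kinases that part the chromosomes, among 24481 genes counted in the ileum of rats with severe acute pancreatitis (SAP). They were chosen by gene symbol and by what their products are known to do, and all 53 were found both among the read counts and among the FPKM values, which divide the fragments of a gene by its length and by the size of the library. Stranded mRNA libraries were made from total RNA of ileal tissue of SD rats of 6 to 8 weeks of age, which were male by the methods of the study. In the SAP group (4 libraries) and the JZL184 group (4 libraries), pancreatitis was induced by running 3% sodium taurocholate into the pancreatic duct. The JZL184 group then received 10 mg/kg of JZL184 into the abdomen, an inhibitor of the enzyme MAGL that breaks down the endocannabinoid 2-AG. The SAP group and the control group (3 libraries) received vehicle, and all rats were killed 24 h after this intervention. The sample labels give the control treatment as "control plasmid" and title the SAP libraries "oil", which the methods do not mention. The methods place the division into the 3 groups 24 h after the surgery, so the 24 h before killing do not run from the induction of pancreatitis. They do not say which operation the control rats had. No group received JZL184 without pancreatitis, so the drug and the drug in a diseased rat cannot be told apart.

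Between 26341299 and 33847135 reads per library lay on genes, and the 53 genes took between 0.0984% and 0.284% of them. A single member had between 9 reads (Ccne2 in a JZL184 library) and 12740 reads (Mki67 in a SAP library), and 51 of the 53 had at least 50 reads in every library. The first and second control library were nearly the same in their counts, with a chi-square per gene of 2.81 against 77.5 to 563 in all other pairs within a group, and were counted as 1 sample, with n = 2 in the control group. SAP library 2 held 20 reads of Y-linked genes where the other libraries held 1222 to 4665, which goes against male rats throughout. The labels name the cells "intestinal epithelial cell" and the source ileum tissue. Enterocyte markers summed to between 5161 and 40123 FPKM and smooth muscle markers to between 380 and 2138 FPKM, so the RNA was that of a mixed tissue. JZL184 library 3 had the lowest sums of enterocyte and Paneth cell markers, 5161 and 938 FPKM, where the other JZL184 libraries had at least 34844 and 5257. In such bulk RNA, fewer dividing cells and less of these RNAs per cell cannot be told apart.

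The lining of the small intestine renews itself within days from dividing cells in the crypts, and cells that move up the villus leave the cycle. D-type cyclins, with their kinases, and then cyclin E with Cdk2 take a cell past the G1 checkpoint and free the E2F factors, which switch on the genes for DNA synthesis. The MCM helicase is loaded on origins by Cdc6 and Cdt1 and is set in motion with Cdc45 and the GINS complex, while Pcna clamps the polymerases to the template. Later in the cycle the A- and B-type cyclins with Cdk1, the polo and aurora kinases, the kinetochore and the mitotic kinesins carry the chromosomes through mitosis, and Cdc20 turns on the ubiquitin ligase that starts anaphase.

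Promoters of cell cycle genes are known for short elements that go with the phase in which a gene is switched on: the CHR (letters TTTGAA), often with nearby CCAAT boxes, in genes of G2 and mitosis, and E2F sites (letters TTGGCGC or GGCGGGA) in genes of DNA synthesis. RefSeq promoter windows on the GRCr8 build, from 250 bases before to 50 bases after the annotated start, were at hand for 41 of the 53 genes, without Cdc6, Mcm4, Ccne2, Ccnd1, Tpx2, E2f1, E2f8, Ccnd2, Ccna2, Foxm1, Rrm2 and Aurkb. Searched on both strands, the CHR letters stood in 17 of the 41 windows (41.5%), against 19.4% of the 27457 genes with a window. By role, they stood in 4 of 6 windows of mitotic cyclins and kinases, in 6 of 8 of checkpoint and kinetochore genes, in 6 of 8 of spindle and cytokinesis genes, and in 1 of 11 of replication genes. CCAAT stood in 32 of the 41 (78.0%, against 39.6% of all genes), GGCGGGA in 15 (36.6%, against 11.7%) and TTGGCGC in 9 (22.0%, against 2.57%), of which 5 were replication genes. By role, GGCGGGA did not set replication genes apart from spindle and cytokinesis genes, with 4 of 11 and 3 of 8 windows. It stood in 2 of 8 windows of checkpoint and kinetochore genes and in 0 of 6 of mitotic cyclins and kinases. TTGGCGC overlaps CCAAT where its opposite strand, GCGCCAA, is followed by T, as in Mcm7 below. These matches are a description of letters and not of bound sites. The 4 stretches below end at the base before the start and show both kinds of promoter in genes that recur in the results, first Cdc20 and Ccnb2 of mitosis, then Mcm7 and Gins1 of replication. Capitals mark the letters of the CHR, the CCAAT box and the E2F site, on either strand, where ATTGG is CCAAT read on the other strand.
Cdc20 (chr5:137255800-137255899, minus strand): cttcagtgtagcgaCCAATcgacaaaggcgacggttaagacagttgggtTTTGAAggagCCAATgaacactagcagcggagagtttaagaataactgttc
Ccnb2 (chr8:79981659-79981803, minus strand): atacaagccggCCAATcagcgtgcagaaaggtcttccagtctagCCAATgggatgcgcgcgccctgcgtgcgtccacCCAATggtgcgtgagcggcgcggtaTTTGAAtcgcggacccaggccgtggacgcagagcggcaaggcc
Mcm7 (chr12:22163179-22163328, minus strand): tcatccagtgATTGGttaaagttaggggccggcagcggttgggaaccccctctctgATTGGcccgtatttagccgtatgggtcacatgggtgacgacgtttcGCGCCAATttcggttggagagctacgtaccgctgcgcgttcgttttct
Gins1 (chr3:160184860-160184919, plus strand): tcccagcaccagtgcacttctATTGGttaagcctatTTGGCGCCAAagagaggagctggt
In Cdc20 the CHR starts 51 bases before the start, with CCAAT boxes at 86 and 41 bases, and the searched window also holds GGCGGGA at 220 bases, outside the stretch shown. Ccnb2 has CHR letters at 43 bases and again at 214 bases, the latter outside the stretch shown, and CCAAT boxes at 134, 101 and 68 bases. In Gins1 the E2F letters read the same way on both strands and so match at 24 and again at 21 bases. Members that were lower in every JZL184 library than in both control samples were set beside the other members: CCAAT stood in 22 of 28 and in 10 of 13 windows, TTGGCGC in 6 of 28 and in 3 of 13, and CHR in 13 of 28 and in 4 of 13, and these shares were not tested.

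Summed over the 53 genes, the level was 751.5 FPKM in the sample of control libraries 1 and 2 and 737 FPKM in control 3. The SAP libraries had 689, 747, 601 and 517 FPKM, and the JZL184 libraries 582, 355, 393 and 316 FPKM. The 4 JZL184 sums therefore lay below both control samples, and 3 of them below every SAP library. As a share of the reads on genes, SAP 1 and 2 instead stood above the controls, at 0.261% and 0.284% against 0.222% to 0.224%. That share was 0.187% and 0.153% in SAP 3 and 4, and 0.193%, 0.108%, 0.123% and 0.0984% after JZL184. On FPKM, the lowest of the 10 samples was JZL184 4 in 26 genes, JZL184 2 in 19 and JZL184 3 in 4, and it was JZL184 1 in none. The highest was SAP 2 in 23 genes and the sample of control libraries 1 and 2 in 18.

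**Figure D1:**
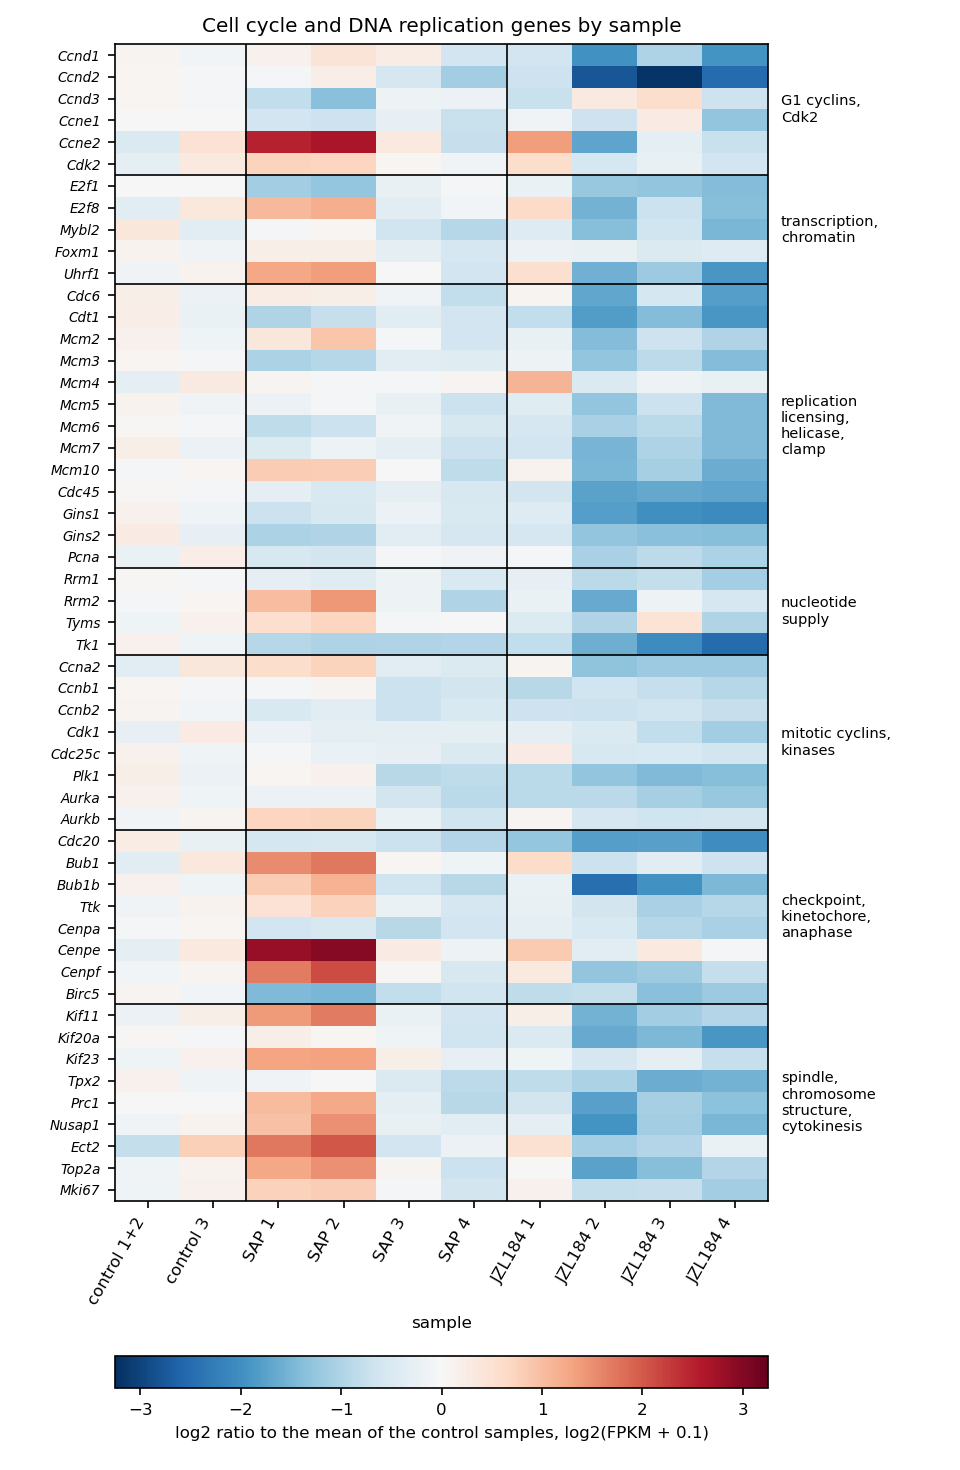
Log2 ratio of each of the 53 genes (rows, grouped by role) to the mean of the control samples, on log2(FPKM + 0.1), in each sample (columns), with red for higher and blue for lower. JZL184 2, 3 and 4 are blue in nearly every row, JZL184 1 is paler, and SAP 1 and 2 are red in 24 genes in which they lie above all other samples.

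The comparison of SAP with control rats asks what pancreatitis did to these genes in the ileum. Most replication and mitotic cyclin genes had lower levels in SAP, and spindle genes had higher ones in part of the SAP libraries, but none passed the test. Tk1, the thymidine kinase of the salvage pathway, was below its control levels in every SAP library (log2 fold change -1.16, SE 0.27). A gene counted as called when its adjusted p was below 0.05 and its level had changed over 2-fold up or down. The edgeR test called 0 of the 53 genes, the smallest adjusted p being 0.449 for Tk1, and 0 of all 16029 genes tested (0%). With DESeq2, Tk1 was called lower, where 0.262% of 23278 genes were, a set not filtered by count beforehand. With limma-voom and sample quality weights 0 of the 53 were called, where 0.0873% of the 16029 genes were called in either direction. At an unadjusted edgeR p below 0.05, 8 genes (15.1%) were lower against 3.4% of all genes, namely Tk1, Birc5, Cdc20, Cenpa, Ccnb2, Cdt1, Ccne1 and Gins2. None of the 53 was higher at that threshold, against 5.69% of all genes. On TMM-normalised counts, the SAP libraries lay wholly below both control samples in 21 genes (39.6%), against 11.9% of all genes, and wholly above them in none, against 11.3%. On FPKM, which is not TMM-normalised, the same was true of 16 genes. The median log2 fold change was -0.29 over the 53 genes and 0.06 over all genes tested, and 32 of the 53 were lower. When SAP libraries 1 and 2 were left out, a setting chosen after seeing the data, all 53 were lower and the median was -0.48. Without SAP library 2 alone, 0 were called and 37 were lower (median -0.34).

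JZL184 against SAP asks what the inhibitor changed in rats with pancreatitis. Levels were lower in 47 of the 53 genes after JZL184, with a median log2 fold change of -0.71 against -0.05 over all genes tested, and the genes with the smallest p were Ccnd1, Cdc20, Nusap1 and Prc1. The edgeR test called 0 of the 53, of which Ccnd1 had the smallest adjusted p, 0.109, and 0 of all 15308 genes (0%). DESeq2 called Ccnd1, Nusap1, Prc1 and Top2a lower, 4 of 53 against 2.61% of 23991 genes, which were not filtered by count beforehand. Limma-voom called Ccnd1, Ccnd2 and Kif20a lower, 3 of 53 against 2.39% of the 15308 genes. At an unadjusted edgeR p below 0.05, 19 genes (35.8%) were lower against 11.1% of all genes, and none was higher against 10.3%. The groups did not overlap in 5 genes (9.43%), all lower after JZL184, against 5.59% of all genes lower and 6.23% higher. Without JZL184 library 1 the edgeR test called 5 genes (Ccnd1, Ccnd2, Cdc45, Gins1 and Kif20a), all lower, where 1.99% of all genes were called lower. In the same setting 28 of the 53 lay wholly below SAP, against 12.8% of all genes. Without SAP libraries 1 and 2 the median was -0.34, and without SAP library 2 alone it was -0.56 with 0 called.

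JZL184 against control compares the ileum in treated pancreatitis with that of the control group. Cdc20 was called by the edgeR test, 1 of 53 against 1.14% of all genes called lower (343 of 15916 genes were called in either direction). The replication genes Cdt1, Mcm7 and Cdc45, the mitotic kinase Plk1, the spindle genes Prc1 and Tpx2 and Tk1 came next in order of p, with adjusted p-values from 0.0588 to 0.0731 in the edgeR fit. Levels were lower in 51 of the 53 genes, with a median log2 fold change of -0.84 against 0.08 over all genes tested. DESeq2 called 16 of the 53 lower, against 3.84% of 23543 genes, which were not filtered by count beforehand. Limma-voom with quality weights called 27 lower, against 9.78% of the 15916 genes. At an unadjusted edgeR p below 0.05, 28 genes (52.8%) were lower against 12.5% of all genes, and none was higher against 13.8%. The JZL184 libraries lay wholly below both control samples in 34 genes (64.2%), against 19.3% of all genes, and wholly above in none, against 18.9%. The count of calls hung on single libraries. It was 26 of 53 without JZL184 library 1, where 6.48% of all genes were called lower, and 2 without library 3, where 2.75% were. It was 0 without JZL184 library 2 or 4, without control libraries 1 and 2 or without control library 3, settings in which 25, 78, 0 and 1 of all genes were called. With the 3 control libraries kept apart it was 20, against 8.06% of all genes called lower. The 3 comparisons share samples in pairs, so their counts are not independent of each other.

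**Figure D2:**
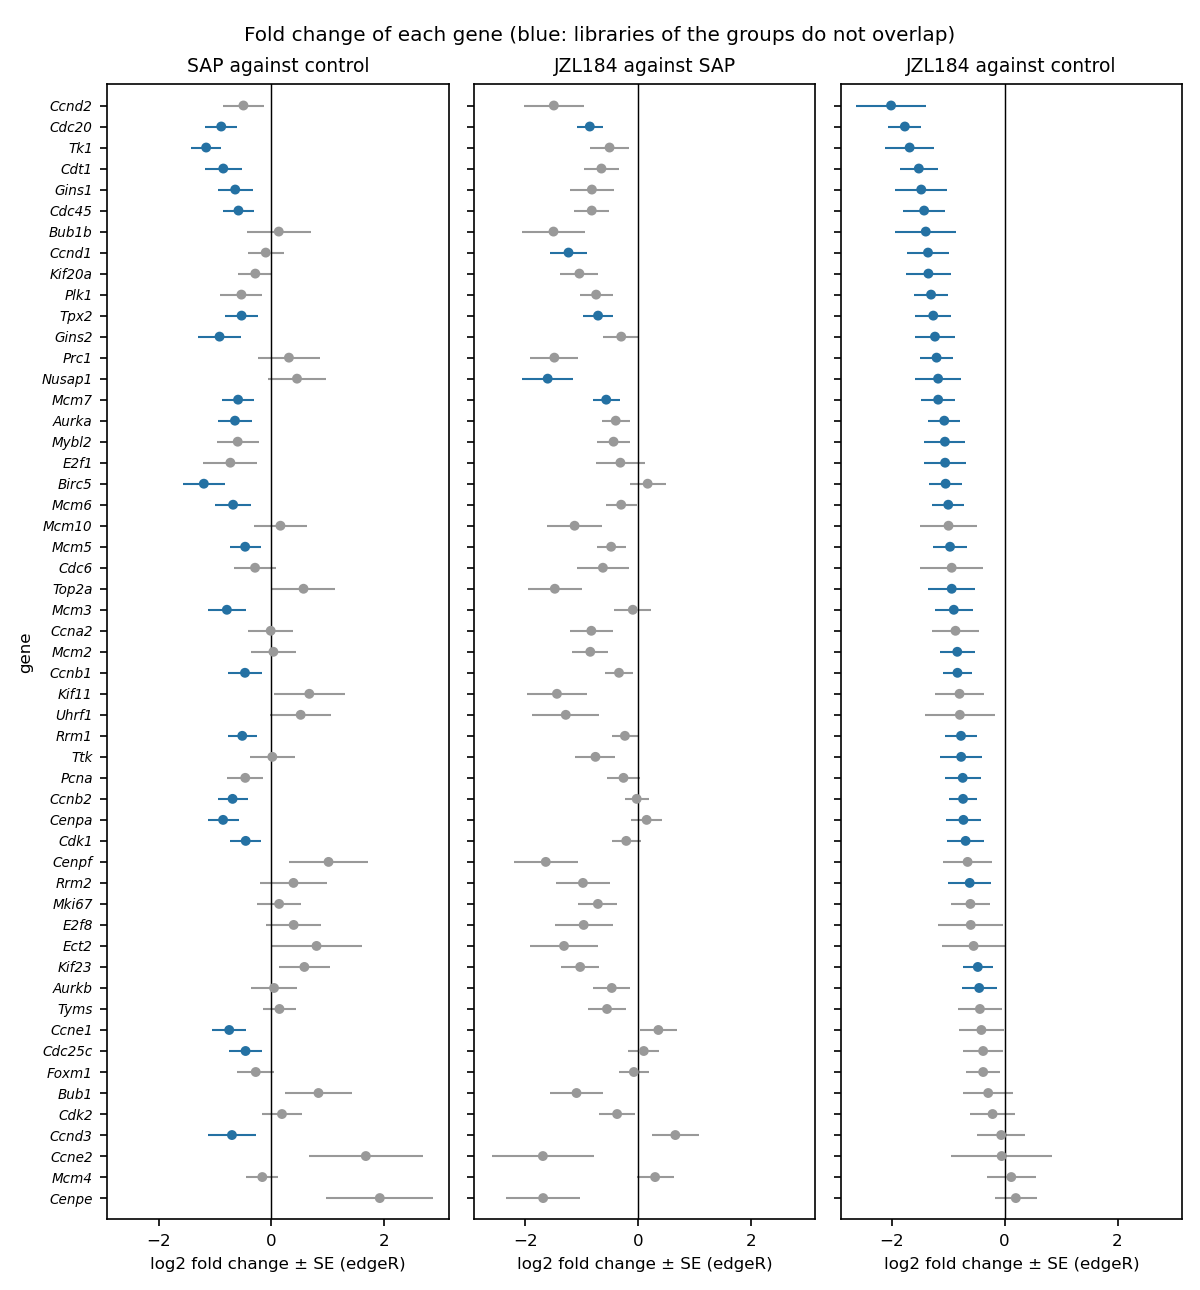
Log2 fold change (x axis, edgeR) with its standard error for each of the 53 genes (y axis, ordered by JZL184 against control) in the 3 comparisons, in blue where the TMM-normalised counts of the 2 groups do not overlap. In the right panel 51 genes lie below 0, and in the left panel 32 do.

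Among the cyclins that act in G1, Ccnd1 and Ccnd2 had their lowest levels after JZL184. Ccnd1, cyclin D1, was at 12.03, 12.3 and 10.8 FPKM in the control libraries, at 12.6, 15.5, 13.6 and 7.43 in the SAP libraries and at 7.41, 2.85, 5.69 and 2.92 in the JZL184 libraries. All JZL184 libraries lay below all others, with JZL184 1 only just below SAP 4. The log2 fold change was -1.23 (SE 0.33) against SAP and -1.36 (SE 0.37) against control, with edgeR adjusted p-values of 0.109 and 0.0807, and -0.10 (SE 0.32) in SAP against control. Ccnd2, cyclin D2, was at 18.2, 17.7 and 16.2 FPKM in control, at 16.7, 19.8, 11.7 and 7.69 in SAP and at 10.7, 2.40, 1.79 and 2.93 after JZL184. JZL184 1 stood well above the other 3 JZL184 libraries and within the range of SAP. Against SAP the log2 fold change of Ccnd2 was -1.49 (SE 0.53, edgeR adjusted p = 0.169). Ccnd3, cyclin D3, went another way in part, with 25.7, 24.5 and 22.8 FPKM in control, 13.7, 9.20, 21.5 and 20.9 in SAP and 14.4, 29.0, 35.3 and 15.1 after JZL184. Of the E-type cyclins, Ccne1 lay between 3.74 and 5.17 FPKM in SAP, below the controls (5.54 to 7.17), with a log2 fold change of -0.75 (SE 0.30, edgeR adjusted p = 0.459), and between 2.52 and 7.51 after JZL184. Ccne2 was under 1 FPKM outside SAP 1, SAP 2 and JZL184 1, where it was at 3.27, 3.60 and 1.41 FPKM. Cdk2, the kinase that both bind, ranged from 1.78 to 4.66 FPKM with overlapping groups.

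The transcription factors and Uhrf1 were low throughout, at 0.74 to 8.97 FPKM. E2f1, which drives S phase genes, was at 2.68, 2.90 and 2.74 FPKM in control, at 1.20, 1.10, 2.34 and 2.71 in SAP and at 2.37, 1.11, 1.08 and 0.98 after JZL184. Its levels were thus low in SAP 1, SAP 2 and JZL184 2 to 4 and near those of the controls in the rest. E2f8, a repressor of the E2F family, and Uhrf1, which recruits the maintenance DNA methyltransferase, had the opposite order within SAP: Uhrf1 was at 7.35, 7.81, 2.99 and 1.91 FPKM in SAP, at 2.64 to 3.29 in control and at 4.39, 0.95, 1.27 and 0.74 after JZL184. Mybl2, the B-Myb activator of G2 and mitotic genes, lay at 5.30 to 8.97 FPKM in control and at 2.40 to 5.06 after JZL184, without overlap. Foxm1, with a similar role, stayed between 1.14 and 1.97 FPKM in all libraries.

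The 13 genes of replication licensing, helicase and clamp summed to 277, 278 and 278 FPKM in the control libraries, to 192, 207, 244 and 214 in SAP and to 240, 117, 145 and 114 after JZL184. Against control, 10 of the 13 were lower after JZL184 at an unadjusted edgeR p below 0.05, against 12.5% of all genes. The JZL184 libraries of 10 lay wholly below the controls, against 19.3% of all genes. In SAP against control, 8 of the 13 did not overlap, all lower, against 11.9% of all genes. Cdt1, which loads the helicase, was at 13.7, 14.2 and 10.2 FPKM in control, at 5.99, 7.05, 9.43 and 7.67 in SAP and at 6.78, 3.30, 4.40 and 3.15 after JZL184. Neither the SAP nor the JZL184 group reached the controls. After JZL184 its log2 fold change was -1.52 (SE 0.34) against control, with an edgeR adjusted p of 0.0588, and -0.85 (SE 0.33) in SAP against control. Mcm7, a subunit of the helicase, was at 33.5, 31.9 and 25.2 FPKM in control, at 21.0, 25.5, 23.5 and 17.5 in SAP and at 18.8, 9.99, 14.2 and 10.5 after JZL184, with a log2 fold change of -1.18 (SE 0.30, edgeR adjusted p = 0.0694) against control. Mcm6 was at 34.6, 36.3 and 33.2 FPKM in control, at 19.1, 21.2, 31.8 and 23.9 in SAP and at 23.4, 16.5, 18.6 and 12.5 after JZL184, with a log2 fold change of -1.0 (SE 0.28) after JZL184 and -0.68 (SE 0.32) in SAP, each against control.

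The other subunits did not move as a block. Mcm3 lay at 47.1 to 51.2 FPKM in control and below that in every SAP (24.0 to 38.8) and every JZL184 library (18.4 to 43.9), with a log2 fold change of -0.79 (SE 0.34) in SAP against control. Mcm5 was at 12.1 to 14.5 FPKM in control and 4.79 to 9.90 after JZL184. Mcm2 was at 12.7 to 15.4 FPKM in control, at 8.96 to 26.3 in SAP and at 5.23 to 11.8 after JZL184. Mcm4 showed no such order: it was at 7.81, 8.52 and 12.4 FPKM in control, at 9.61 to 10.8 in SAP and at 21.5, 7.26, 8.92 and 8.50 after JZL184, and its highest level was in JZL184 1. Mcm10 and Cdc6, which act at origins, lay at or under 2.28 FPKM in all libraries, and both were lowest in JZL184 2 and 4.

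Of the factors that set the helicase in motion, Cdc45 was at 7.25, 7.14 and 6.91 FPKM in control, at 5.60, 5.00, 5.78 and 4.86 in SAP and at 4.64, 2.04, 2.15 and 2.08 after JZL184. The 3 groups thus followed each other without overlap on the FPKM scale. The log2 fold change of Cdc45 was -0.58 (SE 0.27) in SAP against control, -0.82 (SE 0.31) in JZL184 against SAP and -1.43 (SE 0.37) in JZL184 against control, with edgeR adjusted p-values of 0.459, 0.182 and 0.0731. Gins1, with the promoter shown above, was at 22.8, 21.2 and 17.9 FPKM in control, at 12.2, 13.8, 17.4 and 14.1 in SAP and at 14.7, 5.68, 4.91 and 4.61 after JZL184, where library 1 again stood apart. Gins2 was at 4.03, 4.14 and 2.84 FPKM in control, at 1.61 to 2.65 in SAP and at 2.29, 1.33, 1.26 and 1.24 after JZL184. For Gins2 the log2 fold change was -1.24 (SE 0.35) after JZL184 and -0.92 (SE 0.38) in SAP, each against control. Pcna was at 69.1, 72.9 and 95.3 FPKM in control, at 57.8, 54.5, 78.1 and 76.7 in SAP and at 79.6, 39.6, 45.8 and 40.3 after JZL184. On FPKM the JZL184 and control libraries of Pcna overlapped through JZL184 1, although on TMM-normalised counts they did not. Its log2 fold change was -0.74 (SE 0.32, edgeR adjusted p = 0.182) in JZL184 against control, -0.46 (SE 0.32) in SAP against control and -0.26 (SE 0.29) in JZL184 against SAP.

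Tk1 stood out among the 4 genes of nucleotide supply. It was at 12.4, 11.1 and 9.66 FPKM in control, at 5.60, 5.24, 5.38 and 5.48 in SAP and at 6.04, 3.49, 2.49 and 1.81 after JZL184. The 4 SAP libraries were close to each other and below all controls, and JZL184 2 to 4 were lower still. The log2 fold change of Tk1 was -1.68 (SE 0.43) after JZL184 against control, with an edgeR adjusted p of 0.0717. Rrm1, the large subunit of ribonucleotide reductase, was at 53.6 to 56.1 FPKM in control, at 38.5 to 49.0 in SAP and at 25.4 to 45.5 after JZL184. Neither the SAP nor the JZL184 libraries overlapped the controls. Rrm2, the small subunit, was highest in SAP 1 and 2, at 8.57 and 11.3 FPKM, against 3.98 to 4.37 in control. Tyms, thymidylate synthase, was also highest in SAP 1 and 2 (8.69 and 9.69 FPKM), followed by JZL184 3 (8.12 FPKM).

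The 8 mitotic cyclins and kinases summed to 83.5, 83.2 and 86.7 FPKM in control, to 83.4, 87.2, 57.7 and 57.6 in SAP and to 61.1, 49.1, 46.1 and 42.7 after JZL184. SAP 1 and 2 were near the controls and SAP 3 and 4 below them. Plk1, the polo kinase, was at 9.50, 10.5 and 7.78 FPKM in control, at 9.21, 9.64, 4.65 and 4.89 in SAP and at 4.79, 3.55, 3.18 and 3.34 after JZL184. Its log2 fold change after JZL184 was -1.31 (SE 0.29) against control, with an edgeR adjusted p of 0.0607. Aurka, the aurora kinase of the spindle poles, was at 8.52, 7.69 and 6.67 FPKM in control, at 6.38, 6.39, 4.87 and 3.96 in SAP and at 3.93, 3.97, 3.42 and 3.09 after JZL184. The log2 fold change of Aurka was -1.07 (SE 0.28) after JZL184 and -0.64 (SE 0.30) in SAP, each against control, and the SAP and JZL184 libraries just overlapped. Aurkb, its counterpart at the centromere, ranged from 3.24 to 8.54 FPKM, with the 2 highest values in SAP 1 and 2.

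Of the B-type cyclins, Ccnb2 lay below the controls in every SAP and every JZL184 library. It was at 26.7, 26.6 and 23.2 FPKM in control, at 17.7, 19.2, 15.4 and 17.7 in SAP and at 15.6, 15.2, 15.8 and 14.9 after JZL184. The SAP and JZL184 groups overlapped each other and neither reached the controls, with a log2 fold change of -0.69 (SE 0.27, edgeR adjusted p = 0.459) in SAP against control. Ccnb1 was at 10.04 to 11.5 FPKM in control, at 6.51 to 11.1 in SAP and at 5.5 to 6.72 after JZL184. Cdk1, the kinase that the B-type cyclins activate, was at 12.5, 11.5 and 17.2 FPKM in control, at 12.7, 11.8, 11.6 and 11.6 in SAP and at 11.6, 10.5, 8.17 and 6.58 after JZL184. The log2 fold change of Cdk1 was -0.69 (SE 0.32, edgeR adjusted p = 0.212) in JZL184 against control, -0.45 (SE 0.28) in SAP against control and -0.21 (SE 0.26) in JZL184 against SAP. Ccna2, cyclin A2, was highest in SAP 1 and 2, at 17.3 and 19.4 FPKM, and lay between 4.61 and 5.05 FPKM in JZL184 2 to 4. Cdc25c, the phosphatase that activates Cdk1, stayed between 0.94 and 1.81 FPKM in all libraries.

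Cdc20 (gene-Cdc20, on chromosome 5) fell after JZL184. It was at 27.0, 26.2 and 18.9 FPKM in the control libraries, at 15.0, 15.6, 13.8 and 11.6 in the SAP libraries and at 9.29, 6.38, 6.52 and 5.49 in the JZL184 libraries. The 3 groups did not overlap, and the means were 22.7 ± 5.42 (SD, n = 2), 14.01 ± 1.80 (SD, n = 4) and 6.92 ± 1.65 FPKM (SD, n = 4). The log2 fold change was -1.77 (SE 0.29) in JZL184 against control, with an edgeR adjusted p of 0.0283. It was -0.85 (SE 0.23) in JZL184 against SAP and -0.89 (SE 0.28) in SAP against control, with edgeR adjusted p-values of 0.113 and 0.459. The call was lost without control libraries 1 and 2, without control library 3 and without JZL184 library 2 or 4, with log2 fold changes from -2.05 to -1.44 and edgeR adjusted p-values from 0.0794 to 0.471.

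**Figure D3:**
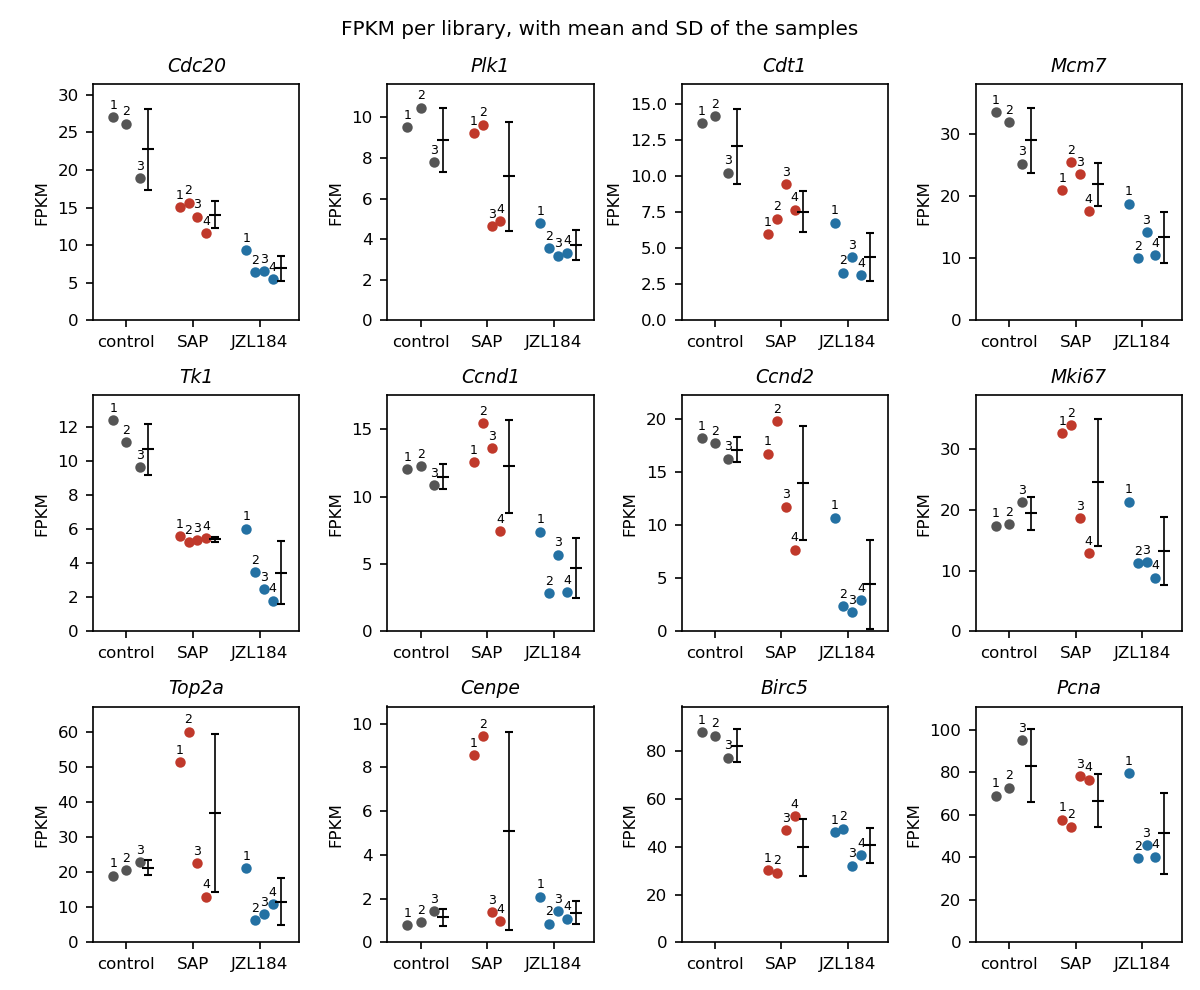
FPKM (y axis, from 0) of 12 of the genes in each library, numbered by replicate, with the mean and SD of each group at its right (control libraries 1 and 2 averaged as 1 sample). Cdc20 steps down from control to SAP to JZL184 without overlap, whereas Top2a, Mki67 and Cenpe have their 2 highest values in SAP libraries 1 and 2.

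The other genes of checkpoint and kinetochore were of 2 kinds. Birc5, survivin, and Cenpa, the histone of the centromere, were low in both the SAP and the JZL184 group. Birc5 was at 87.8, 86.4 and 77.3 FPKM in control, at 30.1, 29.2, 46.9 and 52.7 in SAP and at 46.0, 47.6, 32.1 and 36.4 after JZL184. The SAP and JZL184 groups overlapped each other and neither reached the controls, with a log2 fold change of -1.20 (SE 0.38, edgeR adjusted p = 0.459) in SAP against control. Cenpa was at 3.27, 2.90 and 3.33 FPKM in control and at 1.66 to 2.21 in SAP, with a log2 fold change of -0.86 (SE 0.28). By contrast Cenpe, the kinetochore motor, was at 0.80, 0.94 and 1.43 FPKM in control, at 8.57, 9.44, 1.37 and 0.98 in SAP and at 2.09, 0.85, 1.43 and 1.09 after JZL184. Its high values were in SAP 1 and 2 alone. Cenpf was at 10.2 and 13.7 FPKM in SAP 1 and 2, at 3.19 and 2.11 in SAP 3 and 4, at 2.84 to 3.26 in control and at 3.86, 1.21, 1.34 and 1.75 after JZL184, with a log2 fold change of -1.63 (SE 0.56, edgeR adjusted p = 0.163) in JZL184 against SAP. Bub1b, the checkpoint protein BubR1, was at 8.67, 10.7, 3.04 and 2.54 FPKM in SAP, at 4.36 to 5.47 in control and at 4.14, 0.80, 1.17 and 1.68 after JZL184, with a log2 fold change of -1.50 (SE 0.56) against SAP. Bub1 and Ttk, which act in the same checkpoint, were likewise highest in SAP 1 and 2, at 3.78 and 4.24 and at 1.91 and 2.33 FPKM. Across the settings tried, the log2 fold change against SAP ran from -2.05 to -0.34 for Cenpf and from -2.08 to -0.50 for Bub1b.

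The 9 genes of spindle motors, chromosome structure and cytokinesis summed to 104, 103 and 110 FPKM in control, to 190, 217, 94.3 and 65.8 in SAP and to 88.8, 43.9, 47.2 and 45.2 after JZL184. All 9 were lower in JZL184 than in SAP, 7 of them at an unadjusted edgeR p below 0.05, against 11.1% of all genes. All 9 were also lower than in control. Top2a, which untangles DNA before mitosis, was at 19.1, 20.7 and 22.9 FPKM in control, at 51.5, 60.2, 22.6 and 13.1 in SAP and at 21.2, 6.35, 8.15 and 10.9 after JZL184. Its log2 fold change was -1.47 (SE 0.48, edgeR adjusted p = 0.146) in JZL184 against SAP, -0.94 (SE 0.42) in JZL184 against control and 0.57 (SE 0.55) in SAP against control. Mki67, the proliferation antigen Ki-67, was at 17.4, 17.7 and 21.3 FPKM in control, at 32.6, 33.9, 18.6 and 12.9 in SAP and at 21.3, 11.2, 11.4 and 8.83 after JZL184. The groups overlapped in every comparison, with log2 fold changes of 0.14 (SE 0.39) in SAP against control, -0.71 (SE 0.35) in JZL184 against SAP and -0.61 (SE 0.35) in JZL184 against control. For both genes the sign in SAP against control turned without SAP libraries 1 and 2, to -0.34 and -0.37, and that of Mki67 also with offsets for gene length (-0.51), with limma-voom (-0.0398) and without SAP library 2 (-0.0139).

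Prc1, which bundles the microtubules of the midzone, was at 16.6, 15.1 and 16.4 FPKM in control, at 33.0, 38.2, 13.2 and 8.62 in SAP and at 10.6, 4.69, 7.52 and 6.29 after JZL184. Its log2 fold change was -1.48 (SE 0.42) against SAP and -1.21 (SE 0.30) against control, with edgeR adjusted p-values of 0.121 and 0.0667. Nusap1, a spindle protein, was at 5.71, 6.41 and 7.19 FPKM in control, at 12.8, 18.6, 5.56 and 5.05 in SAP and at 5.35, 1.64, 2.97 and 2.29 after JZL184, with a log2 fold change of -1.60 (SE 0.46, edgeR adjusted p = 0.119) against SAP. Tpx2, which activates Aurka, was at 29.8, 28.5 and 23.7 FPKM in control, at 24.3, 26.3, 18.9 and 14.5 in SAP and at 14.7, 12.8, 8.55 and 8.97 after JZL184, with a log2 fold change of -1.27 (SE 0.32, edgeR adjusted p = 0.0702) against control. Of the kinesins, Kif20a was at 3.28 to 5.99 FPKM in SAP and at 3.74, 1.60, 1.84 and 1.34 after JZL184, Kif11 at 11.7, 14.5, 3.77 and 2.84 in SAP and at 5.00, 1.44, 1.94 and 2.23 after JZL184, and Kif23 at 12.5, 12.8, 5.83 and 4.23 in SAP and at 4.60, 3.48, 4.04 and 3.00 after JZL184. Their log2 fold changes against SAP were -1.04 (SE 0.34), -1.44 (SE 0.53) and -1.02 (SE 0.34). These sizes hung on the setting. Across the settings tried they ran from -1.39 to -0.88 for Kif20a, from -1.85 to -0.29 for Kif11 and from -1.22 to -0.36 for Kif23. For Prc1 the range was -1.73 to -0.55, for Nusap1 -1.94 to -0.77 and for Top2a -1.85 to -0.58. Ect2, which starts the furrow of the dividing cell, was at 5.47 and 6.78 FPKM in SAP 1 and 2 and at 0.69 to 2.79 FPKM in all other libraries.

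Within the JZL184 group, library 1 was unlike the other 3. The median log2 ratio of the 53 genes to the control mean, on log2(FPKM + 0.1), was -0.25 in JZL184 1 and -1.28, -0.93 and -1.18 in JZL184 2, 3 and 4. The median of 15162 genes lay between -0.12 and 0.14 in these libraries. On FPKM, JZL184 2, 3 and 4 were all below both control samples in 45 of the 53 genes, against 26.7% of all genes, and JZL184 1 was in 35, against 34.5%. Counted separately, JZL184 2, 3 and 4 were all below every SAP library in 35 genes, against 16.6% of all genes. The crypt stem cell markers of JZL184 1 summed to 73.4 FPKM, against 42.9, 11.4 and 53.9 in JZL184 2, 3 and 4 and 65.7 to 91.9 in control. Its B cell markers summed to 131 FPKM, against 54.8 to 69.5. Its sums of enterocyte, germinal centre B cell, T cell and exocrine pancreas markers were also the highest of the group. Macrophage markers were lowest in it, at 105 FPKM against 202 to 305, and Paneth cell, neutrophil and smooth muscle markers lay in between. JZL184 3 had the lowest crypt sum, although the median of the 53 genes was less lowered there than in JZL184 2 and 4. The part of these cell types in the level of the 53 genes was not tested.

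Within the SAP group, libraries 1 and 2 went with gene length. The length of each gene was taken from its reads and its FPKM, and had a median of 3.56 kb over the 53 genes (1.12 to 11.4 kb) and of 3.31 kb over all genes. In SAP 1 the 27 shorter genes had a median log2 ratio to control of -0.20 and the 26 longer ones of 0.64, and in SAP 2 these were -0.20 and 0.80. The shorter and the longer genes were both lower in SAP 3, at -0.28 and -0.14, and in SAP 4, at -0.63 and -0.57. Spearman's rho between length and ratio over the 53 genes was 0.48 and 0.47 in SAP 1 and 2, against 0.50 and 0.51 over 13749 genes, and 0.31 and 0.13 in SAP 3 and 4, against 0.16 and -0.0043 over all. It was 0.49 in JZL184 1, against 0.31 over all genes, and 0.12 to 0.26 in JZL184 2 to 4, against 0.0305 to 0.21. These are descriptions across genes of 1 library, which are not independent, and whether length or another property of these libraries made the difference was not tested. In 24 genes SAP 1 and 2 were above all other samples, against 26.3% of all genes, and in 17 both were below both control samples, against 29.8%. SAP 3 and 4 were below both control samples in 35 genes, against 12.5% of all genes. Crypt stem cell markers summed to 167 and 282 FPKM in SAP 1 and 2 and to 89.4 and 67.7 FPKM in SAP 3 and 4, with Olfm4 at 138 and 243 FPKM in SAP 1 and 2. Enterocyte markers summed to 9459 and 13289 FPKM in SAP 1 and 2 against 26026 to 30585 in control. Their part in the result was not tested either.

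**Figure D4:**
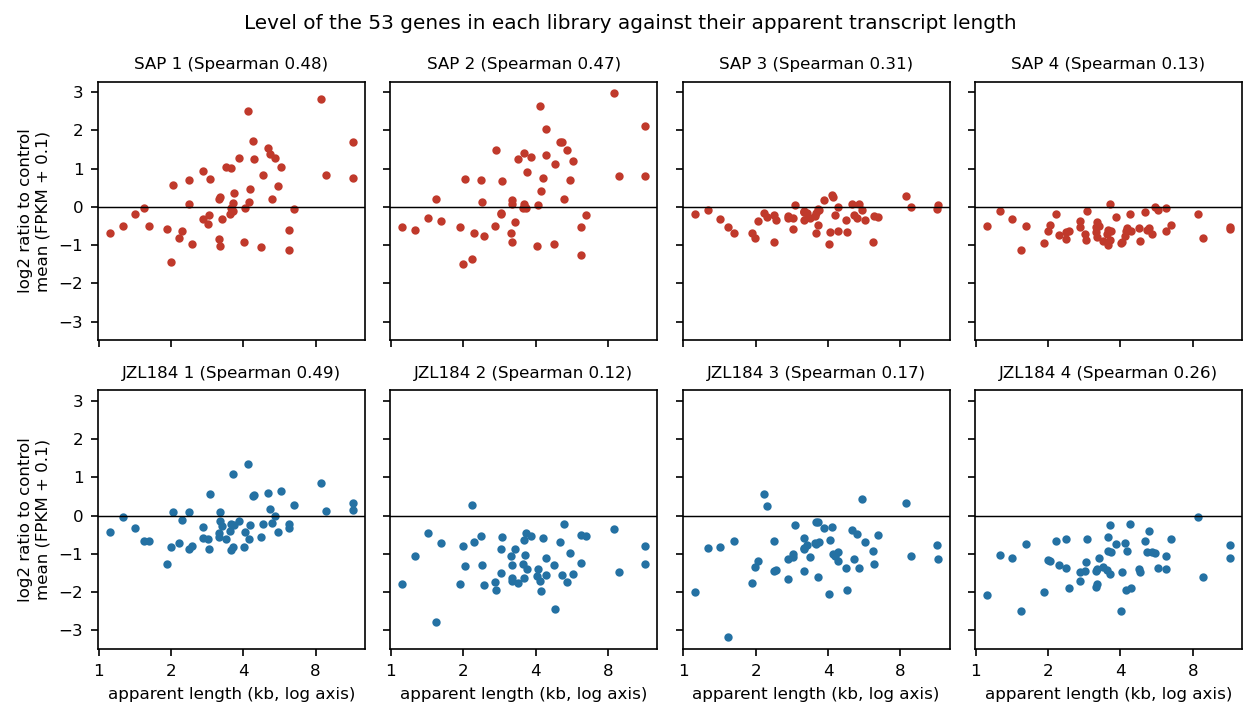
Log2 ratio of the 53 genes to the control mean (y axis, log2(FPKM + 0.1)) against apparent transcript length (x axis, kb, log axis) in each SAP library (red) and JZL184 library (blue), 1 point per gene. In SAP 1 and 2, 19 and 20 of the 26 longer genes lie above 0 and 18 and 16 of the 27 shorter ones below it, and in JZL184 2 to 4 most points lie below 0 at every length.

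Further genes of the cycle, taken as 4 lists, were read in the same fits. Over all genes, the shares at an unadjusted edgeR p below 0.05 were 12.5% lower and 13.8% higher in JZL184 against control, 3.4% and 5.69% in SAP against control and 11.1% and 10.3% in JZL184 against SAP. Of 46 other mitosis genes, 22 were lower and none higher in JZL184 against control at an unadjusted edgeR p below 0.05, and the JZL184 libraries of 27 lay wholly below the controls, against 19.3% of all genes. The list had a median log2 fold change of -0.70. Spc24 and Kifc1 fell and were called. Spc24, of the kinetochore complex that grips microtubules, was at 115, 111 and 110 FPKM in control, at 31.2, 31.6, 49.1 and 65.3 in SAP and at 36.7, 31.9, 28.2 and 20.7 after JZL184, with a log2 fold change of -1.96 (SE 0.29, edgeR adjusted p = 0.0220). Kifc1, a minus-end kinesin, was at 20.1, 21.6 and 14.02 FPKM in control, at 9.79 to 11.7 in SAP and at 8.35, 6.12, 5.59 and 5.27 after JZL184, with a log2 fold change of -1.51 (SE 0.30, edgeR adjusted p = 0.0457). Both calls were lost without either control sample and without JZL184 library 2 or 4. In SAP against control 9 of the 46 were lower and none higher at that p, among them Spc24 (-1.47, SE 0.41) and Tacc3 (-0.89, SE 0.26), and in JZL184 against SAP 13 were lower and none higher, with Kif4a (-1.36, SE 0.39) and Racgap1 (-0.88, SE 0.29) first.

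Of 34 genes of origin recognition and the DNA polymerases, 9 were lower and 2 higher in JZL184 against control at an unadjusted edgeR p below 0.05, with a median log2 fold change of -0.49. The edgeR test called none of them. DESeq2 called 4 lower, against 3.84% of 23543 genes not filtered by count beforehand, and 2 higher, against 4.45%. Chaf1b, of the chromatin assembly factor, was at 5.96, 5.67 and 4.57 FPKM in control and at 2.92, 1.71, 2.09 and 1.03 after JZL184 (log2 fold change -1.48, SE 0.39). Orc2, of the origin recognition complex, was higher instead, at 1.59, 1.97 and 2.74 FPKM in control, 5.04, 4.24, 2.27 and 2.71 in SAP and 5.72, 4.23, 6.05 and 5.58 after JZL184, with a log2 fold change of 1.22 (SE 0.30, edgeR adjusted p = 0.0652). In SAP against control 3 of the 34 were lower and none higher, with Pold1 (-0.90, SE 0.28) and Fen1 (-0.99, SE 0.33) first. In JZL184 against SAP 5 were lower and 2 higher, with Lig1 (-0.84, SE 0.26) and Pola1 (-1.95, SE 0.64) first.

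The brakes of the cycle showed no common direction. Of 17 CDK inhibitors and other brakes tested, 3 were lower and 1 higher in JZL184 against control at an unadjusted edgeR p below 0.05, near the 12.5% lower and below the 13.8% higher of all genes, with a median log2 fold change of -0.09. Pkmyt1, which inhibits Cdk1 by phosphorylation, was at 2.17, 2.24 and 1.63 FPKM in control and at 0.68 to 1.0 in SAP and 0.42 to 0.96 after JZL184, with log2 fold changes of -1.43 (SE 0.37) and -1.50 (SE 0.40) against control. Fzr1, Cdh1 of the anaphase-promoting complex, had a log2 fold change of -0.96 (SE 0.29) in JZL184 against control, and Cdkn2d, p19, of -0.95 (SE 0.35) in SAP against control. In JZL184 against SAP, 3 were higher and 2 lower. Cdkn1a, p21, was at 27.7, 27.1 and 20.5 FPKM in control, at 8.55, 11.6, 16.6 and 21.4 in SAP and at 14.2, 31.9, 30.3 and 45.6 after JZL184. JZL184 1 lay within SAP and the other 3 above it, with a log2 fold change of 1.21 (SE 0.44, edgeR adjusted p = 0.176). Btg1, an antiproliferative gene, was at 121, 153, 159 and 172 FPKM in SAP and at 220, 285, 190 and 310 after JZL184, without overlap (log2 fold change 0.90, SE 0.30, edgeR adjusted p = 0.150).

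Of 16 CDKs and G1 regulators, 1 was lower and 2 higher in JZL184 against control at an unadjusted edgeR p below 0.05. Cdk4, the partner of the D-type cyclins, was at 33.3, 33.1 and 29.8 FPKM in control, at 14.6, 14.8, 31.8 and 30.0 in SAP and at 22.6, 15.5, 13.1 and 15.4 after JZL184 (log2 fold change -0.96, SE 0.28, edgeR adjusted p = 0.0927). Myc was at 3.16, 3.97 and 6.06 FPKM in control and at 11.4, 6.13, 8.87 and 8.01 after JZL184 (log2 fold change 0.80, SE 0.32). In SAP against control 1 was lower, Cdc25b (-0.93, SE 0.30), and 1 higher, Lin9 (2.10, SE 0.89), whose high values were in SAP 1 and 2. In JZL184 against SAP 1 was lower, E2f7 (-1.45, SE 0.52), and 1 higher, Cks2 (0.78, SE 0.28). None of the 16 was called by edgeR or DESeq2 in any comparison.

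Other cell types with dividing or resident cells were present in all groups. Germinal centre B cell markers summed to 24.3 to 30.5 FPKM in control, 27.0 to 32.8 in SAP and 18.6 to 42.2 after JZL184. T cell markers summed to 138 to 160, 52.2 to 158 and 98.2 to 126 FPKM, and macrophage markers to 346 to 400, 161 to 436 and 105 to 305 FPKM. B cell markers summed to 86.3 to 103 FPKM in control and 15.4 to 80.9 in SAP, with the 2 lowest values in SAP 1 and 2. Neutrophil markers summed to 1.12 to 2.54 FPKM in control, 8.41 to 80.6 in SAP and 13.2 to 251 after JZL184. Paneth cell markers summed to 11202 to 12409 FPKM in control and to 3669 to 14574 in SAP. Of the exocrine pancreas markers Cela1 was at 4.19 to 12.04 FPKM, and Prss1, Prss2, Cela2a, Cpa1 and Cpb1 were at or near 0 in all libraries. How far any of these cell types carried the levels of the 53 genes was not tested.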

How the data were processed

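Ileal RNA libraries labelled control (3), SAP (4) and SAP with JZL184 (4) were grouped by their labels. The authors trimmed the reads, aligned them with HISAT2 to mRatBN7.2 and deposited the count of uniquely aligned reads per gene, without normalization. FPKM was also calculated by the authors and deposited with 2 decimals. The tool used for counting, its strand setting and the gene models are not given in the sources read here. Control libraries 1 and 2 were summed (FPKM averaged).

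Pairs of groups were compared over all genes by edgeR 4.0.16, quasi-likelihood test (R 4.3.3; TMM, minimum count 10, Benjamini-Hochberg adjustment), which was tested on simulated data. The p-values set the difference between groups against the spread between these samples. DESeq2 1.42.0 and limma 3.58.1 (voom with quality weights) were alternatives, and adjusted p-values that DESeq2 gave as NA were not called. DESeq2 was run without the count filter, so its shares of all genes include low-count genes that edgeR and limma left out. Lower or higher calls use an adjusted p below 0.05 and a fold change of 2. Python 3.11.15 (pandas 2.3.3, matplotlib 3.10.9) was used for motifs and plots.

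The 53 genes and all lists were chosen with earlier results of these data known. Fold changes are given for the 12 genes with the smallest p per comparison, for Mki67, Pcna, Ccnd1, Cdk1 and Top2a, and for the 2 with the smallest p of each further list. Other genes are described by FPKM. Replicate numbers were not treated as pairs in the main fits.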

Additional observations from a re-analysis of the deposited data

Results flagged for a closer look

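In 12 of 106 groups of 4 libraries (11.3%; the 53 genes in the SAP and in the JZL184 group), 1 library stood apart by its FPKM, with a gap to the next library that, divided by the range of the group, was above Dixon's 95% critical value. Chance flags about 1 in 20 such groups where the values are normal and the groups independent. The genes here were read in the same libraries, so their flags are not independent and their count cannot be judged by that rate. In 11 of the 12 it was JZL184 1, as the highest of its group: Ccnd2 at 10.69 FPKM, E2f1 at 2.37, Uhrf1 at 4.39, Mcm4 at 21.53, Cdc45 at 4.64, Gins1 at 14.68, Gins2 at 2.29, Pcna at 79.63, Ccna2 at 12.3, Cdc25c at 1.81 and Aurkb at 5.48. Of these, 5 belong to replication licensing, helicase and clamp. The remaining one was Cdk1 in SAP 1, at 12.68 FPKM, where the next highest of the group was SAP 2 at 11.76.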

How the results depend on the processing

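With DESeq2, limma-voom, no filter on low counts and all 3 groups in 1 fit, 203, 14, 14 and 4 of all genes were called in SAP against control, 1283, 699, 27 and 207 in JZL184 against SAP and 1952, 2906, 929 and 369 in JZL184 against control, and of the 53 genes 1, 0, 0 and 0, then 4, 3, 0 and 0, then 16, 27, 9 and 2. DESeq2's size factors in edgeR left 0, 0 and 1 of the 53 called, and offsets for gene length 0, 0 and 1, with 22 of all genes called in JZL184 against SAP. With control libraries 1 and 2 kept apart, edgeR and DESeq2 called 0 and 4 of the 53 (33 and 1468 of all genes) in SAP against control and 20 and 21 (2800 and 3498) in JZL184 against control. The cause of these differences in counts was not tested.

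Leaving out each sample in turn gave 0 to 0 called of the 53 and 0 to 3 of all genes in SAP against control, 0 to 5 and 0 to 655 in JZL184 against SAP, and 0 to 26 and 0 to 1867 in JZL184 against control. The genes without overlap ranged from 21 to 31, from 4 to 28 and from 34 to 45, against 25% to 54.1%, 13.6% to 26.4% and 41.3% to 57.3% of all genes in either direction, and the medians of the 53 from -0.40 to -0.21, from -0.87 to -0.56 and from -1.14 to -0.76. The largest counts of JZL184 against SAP and against control came without JZL184 library 1. Where a control sample was left out, the lone control was taken to vary as the other group does.

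Without SAP libraries 1 and 2, chosen after seeing the data, 74 of all genes and 0 of the 53 were called in SAP against control and 40 of the 53 did not overlap, all lower, against 16.8% of all genes. In JZL184 against SAP the median was then -0.34 and 10 did not overlap, all lower, against 14.9%. Top2a and Mki67 turned in SAP against control, to -0.34 and -0.37. Mki67 also turned there with limma-voom (-0.0398) and gene length offsets (-0.51), and without 1 library it ranged from -0.0139 to 0.32. Ccnd1 ranged from -0.24 to 0.0576 without 1 sample (0.0458 without SAP library 4).

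The correlations of same-numbered SAP and JZL184 samples, centred within each group, ran from -0.53 to 0.16. Of the 4 SAP samples, 1 correlated best with its own number. With so few samples this cannot decide whether the numbers mark paired rats. With the replicate number as a block, 0, 0 and 13 of the 53 (1, 0 and 1488 of all genes) were called in the 3 comparisons, and Ccnd1 turned to 0.019 in SAP against control. The block with gene length offsets called 0, 0 and 12 (7, 0 and 1336), and gave Mki67 as -0.48 and Cdk1 as 0.0321 in SAP against control.

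The median of the 53 genes was below 0 in every setting of every comparison, but these settings refit the same samples. In SAP against control the main median, -0.29, was about the size of the spread between samples. The pooled SD of the genes' median log2 normalised count was 0.295. By single library, the median log2 ratio to control on FPKM was above 0 in SAP 1 and 2, at 0.10 and 0.13. Depth was lowest behind Ccne2, with 9 reads in 1 library, so its levels under 1 FPKM are the least certain of the 53.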
